A study of Rattus norvegicus with 20 samples.

Results

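Cytosolic ribosomal protein genes were described in total RNA of male Sprague Dawley rats, from samples whose labels give brain cortex as the tissue. Members were all genes with a probe set annotated to that gene alone and a symbol made of Rpl or Rps and a digit, without the Rps6k kinases, symbols ending in l1 and pseudogene symbols ending in ps and a number. This gave 43 genes (29 of the large subunit, named Rpl, and 14 of the small subunit, named Rps) of 14217 genes named by 1 symbol. Each gene is given by the brightest of its probe sets over the 20 Affymetrix arrays. The tested rats, 10 in number, breathed 2% isoflurane in oxygen, an inhaled anaesthetic given here at 1.4 MAC (minimum alveolar concentration, the unit of anaesthetic strength), for 15 min and recovered for 6 h. The 10 control rats breathed oxygen alone for the same 15 min with the same 6 h of recovery. All rats were 20 weeks old and weighed 250 to 300 g. The series was made as a source of expression profiles for network building.

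The cytosolic ribosome translates nuclear-encoded mRNA. Its small subunit reads the mRNA and its large subunit joins amino acids and passes the growing chain through an exit tunnel. Proteins of both subunits are needed in equal number per ribosome, and their mRNAs are among the most abundant of most cells. In mammals these mRNAs typically begin with a run of pyrimidines, the 5′-terminal oligopyrimidine tract, through which mTOR signalling and the protein Larp1 control their translation, so protein output can change without a change in mRNA.

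The arrays fell into 2 sets by the signal of the Purkinje cell gene Pcp2, and this split goes against the tissue label. The 11 Pcp2-high arrays (5 isoflurane, replicates 1, 3, 7, 8 and 9, and 6 oxygen, replicates 5 to 10) had Pcp2 log2 signals of 13.60 to 14.17. The 9 Pcp2-low arrays (5 isoflurane, replicates 2, 4, 5, 6 and 10, and 4 oxygen, replicates 1 to 4) had 4.46 to 10.67. The mean log2 signal of 7 cerebellar granule cell genes was 11.50 to 11.91 on Pcp2-high arrays and 5.92 to 8.84 on Pcp2-low arrays. That of 7 cortical projection neuron genes was 5.88 to 7.98 on Pcp2-high arrays and 9.06 to 9.52 on Pcp2-low arrays. Among Pcp2-low arrays, isoflurane replicates 2, 4, 5 and 6 stood apart. Their Pcp2 log2 signals were 4.46 to 5.93, against 7.63 to 10.67 on the other Pcp2-low arrays, and their 3′/5′ log2 ratio (3′ over 5′ control probe sets of Gapdh and Actb, higher where RNA is shorter or its copying less complete) was 1.28 to 1.59, against 0.75 to 1.23. Isoflurane was therefore compared with oxygen in a fit that holds the set as a block, and again in each set alone. The labels call the arrays of a group biological replicates, and p-values below measure the spread between them.

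The pyrimidine tract was looked for in RefSeq promoter windows of the rat assembly GRCr8, where 38 of the 43 genes matched. Rpl23a, Rpl27, Rpl30, Rpl7 and Rps29 are named only. A C followed by 4 bases that were each C or T began within 5 bases of the annotated transcription start in 21 of 38 members (55.3%) and in 5248 of 33469 promoters of the table (15.7%). Exactly at the annotated start it was present in 11 members (28.9%) and in 881 promoters of the table (2.63%). Read on the other strand, the same letters were in 2 members (5.26%) and in 6604 promoters (19.7%). Both counts can hold overlapping tracts, and each promoter was counted once. The windows below run from 20 bases before the annotated start to 10 bases after it, for 6 members that the results turn on, and capitals mark the run of C and T from the first such C within 5 bases of the start. Pyrimidines just before that C, as in Rpl4 and Rpl14, are left in lower case. They are given 5′ to 3′ on the gene's strand.
Rpl4 (chr8:73566457-73566486, plus strand): agtgataagttcttcCTTTTCCTgtgggag
Rps9 (chr1:74430428-74430457, minus strand): cgcgatccggcggccacgtttCTCTTTgtc
Rpl18 (chr1:105325250-105325279, plus strand): gtctttctggacctggtctagcaggaggcg
Rpl14 (chr8:129163600-129163629, plus strand): cggcagggcgggccctCTCCCTTCTCgctg
Rpl41 (chr7:1563488-1563517, minus strand): gaaggggcggctcggaagtgacgacaccaa
Rpl39 (chrX:121195887-121195916, minus strand): cagcgtcttctaatcgcgttCTTCCggcct
The windows of Rpl18 and Rpl41 hold no such run near the annotated start, and those of Rpl4, Rps9, Rpl14 and Rpl39 do. A match is a description of these letters at an annotated start, which may differ from the start used in brain.

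Most members were read by probe sets near the top of the array's range. For 36 of the 43 genes the mean log2 signal over 20 arrays was 12.27 to 14.47, at percentiles 98 to 99.98 of all probe sets. The 5 brightest were Rps29 (14.47), Rps23 (14.19), Rpl26 (14.09), Rpl35a (13.90) and Rpl3 (13.83). Rps23 lies at the decoding centre of the small subunit, and Rpl3 reaches towards the peptidyl transferase centre of the large subunit. Signals of different probe sets are not transcript levels on 1 scale, so no order of expression is read from these values. Rpl22 had the lowest mean of these 36 (12.27).

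The other 7 members had weak probe sets. Rps4y2, a copy of the small subunit protein S4 named for the Y chromosome, averaged 6.86. Rps27l, a paralog of Rps27 known from human cells as a p53 target, averaged 7.07, and Rpl39, which lines the exit tunnel, averaged 8.78. Below the filter of the tests (mean log2 signal above 6.62, the 40th percentile) were Rpl3l (4.06), the paralog of Rpl3 used in striated muscle, and Rps13 (5.62), Rpl30 (5.88) and Rpl28 (6.25). Rpl3l ranged over 3.13 to 5.42 on the 5 isoflurane Pcp2-high arrays and over 2.71 to 5.84 on the 6 oxygen Pcp2-high arrays, so the groups overlapped. The Rps13, Rpl30 and Rpl28 proteins are core parts of the ribosome, and no level of these genes is read from their weak probe sets. Of the 43 genes, 39 passed the filter (26 large subunit, 13 small subunit).

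In the comparison of isoflurane with oxygen across both sets, with the set as a block, Rpl4 rose and no other member passed the test. Rpl4, whose protein has a loop in the wall of the exit tunnel, was 0.27 ± 0.07 higher on the log2 scale after isoflurane (SE, 10 against 10 arrays, 1.21-fold, limma adjusted p = 0.0266). Its SE was the lowest of the members, and its difference was not the largest. Rpl37a (0.27 ± 0.11, adjusted p = 0.133) and Rpl39 (0.37 ± 0.19, adjusted p = 0.219) had differences as large or larger. Called were 1 of 39 members higher and 0 lower, against 7.37% of all 18625 probe sets tested (2.58% higher and 4.79% lower). The differences were small and mostly of 1 sign: 37 of 39 members had a positive difference, with a median of 0.14 beside 0.00 over all probe sets, of which 50.6% were positive. Because members share their array-to-array variation (below), these 37 are not 37 separate observations. In bulk tissue, fewer cells of a type and less RNA per cell cannot be told apart.

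On Pcp2-high arrays Rpl4 had log2 signals of 13.03, 12.89, 13.17, 12.92 and 12.62 in isoflurane replicates 1, 3, 7, 8 and 9, against 12.56, 12.61 and 12.81 (lowest, median and highest of 6) with oxygen. On Pcp2-low arrays it had 12.87, 12.93, 12.81, 13.05 and 12.70 in isoflurane replicates 2, 4, 5, 6 and 10, against 12.64, 12.58, 12.87 and 12.44 in oxygen replicates 1 to 4. The groups overlapped in each set: isoflurane replicate 9 lay among the oxygen arrays of the Pcp2-high set, and oxygen replicate 3 lay among the isoflurane arrays of the Pcp2-low set. Of the isoflurane arrays, 9 of 10 were above the oxygen mean. The call on Rpl4 ended with oxygen replicate 4 left out (0.25, adjusted p = 0.0624, where 2.58% of probe sets passed). It also ended with no set block (0.27, adjusted p = 0.0801, where 0.397% of probe sets passed). With isoflurane replicates 2, 4, 5 and 6 left out the difference was 0.24 (adjusted p = 0.212), and 0.0% of the 18625 probe sets passed. That fit keeps isoflurane replicate 10 as the only isoflurane Pcp2-low array, so the part of those arrays cannot be told from the loss of arrays. Over 37 alternatives the adjusted p of Rpl4 ran from 0.00386 to 0.277 and its difference from 0.19 to 0.31.

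Rps9, a small subunit protein beside the mRNA entry channel, gave a difference of similar size that missed the threshold (0.26 ± 0.10, adjusted p = 0.0895, and 0.0273 to 0.289 over 37 alternatives). On Pcp2-high arrays its log2 signals were 12.92, 13.10, 12.89, 13.22 and 12.59 in isoflurane replicates 1, 3, 7, 8 and 9, against 12.31, 12.70 and 12.79 (lowest, median and highest of 6) with oxygen. On Pcp2-low arrays they were 12.60, 12.94, 12.90, 13.07 and 12.82 in isoflurane replicates 2, 4, 5, 6 and 10, against 12.54, 12.60, 13.14 and 12.51 in oxygen replicates 1 to 4. Groups overlapped in both sets, through the low isoflurane replicate 9 in the first and the high oxygen replicate 3 in the second. Rps6, the small subunit protein that S6 kinase phosphorylates, had a difference of 0.24 (adjusted p = 0.119). The 26 large subunit members had a median difference of 0.13 with 25 positive, and the 13 small subunit members 0.16 with 12 positive.

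Within Pcp2-high arrays all 39 tested members had a higher mean after isoflurane, and none passed the test. Members share their array-to-array variation, so these 39 are not 39 separate observations. The median difference of the 39 members was 0.24, beside -0.0024 over all probe sets, and differences ran from 0.00 (Rpl39) to 0.44 (Rpl37a). Called were 0 of 39 members, against 0.0% of all probe sets. At an unadjusted p under 0.05 there were 8 members and 2376 of 18625 probe sets. The 3 members of lowest p were Rpl37a (0.44 ± 0.13), Rpl4 (0.29 ± 0.09) and Rps9 (0.34 ± 0.12), with limma adjusted p of 0.331, 0.331 and 0.338.

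Rpl37a, a zinc-binding protein of the large subunit, had log2 signals of 14.06, 13.83, 13.99, 14.06 and 13.43 in isoflurane replicates 1, 3, 7, 8 and 9, against 13.15, 13.47 and 13.61 (lowest, median and highest of 6) with oxygen. The first 4 of these isoflurane arrays were above all oxygen arrays and replicate 9 was among them. Replicate 9 was the lowest isoflurane Pcp2-high array for all 36 bright members. Without it, 8 members passed, all higher (Rpl12, Rpl14, Rpl21, Rpl24, Rpl37a, Rpl4, Rps15a and Rps9), against 1.34% of probe sets higher, and the median difference was 0.37. Replicate 9 is singled out here by the members' own values, so these calls are no separate evidence. Oxygen replicates 5 and 7 were kept, with bright member means of 12.92 and 12.94, against 13.00 in isoflurane replicate 9. The fit without the low arrays of both groups is given below. Leaving out single arrays moved the members' median difference between 0.16 and 0.37.

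Within Pcp2-low arrays the members showed no common direction. The median difference was 0.01, beside -0.0040 over all probe sets, and 26 of 39 were positive. Called were 0 of 39 members, against 18.6% of all probe sets, and at an unadjusted p under 0.05 there were 3 members and 6515 of 18625 probe sets. The 3 members were Rpl18 (-0.48 ± 0.15, limma adjusted p = 0.0514), Rpl39 (0.82 ± 0.29, adjusted p = 0.0723) and Rpl4 (0.24 ± 0.11, adjusted p = 0.132). Small subunit genes split, from -0.31 for Rps3, which lies at the mRNA entry channel, to 0.22 for Rps6.

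**Figure D1:**
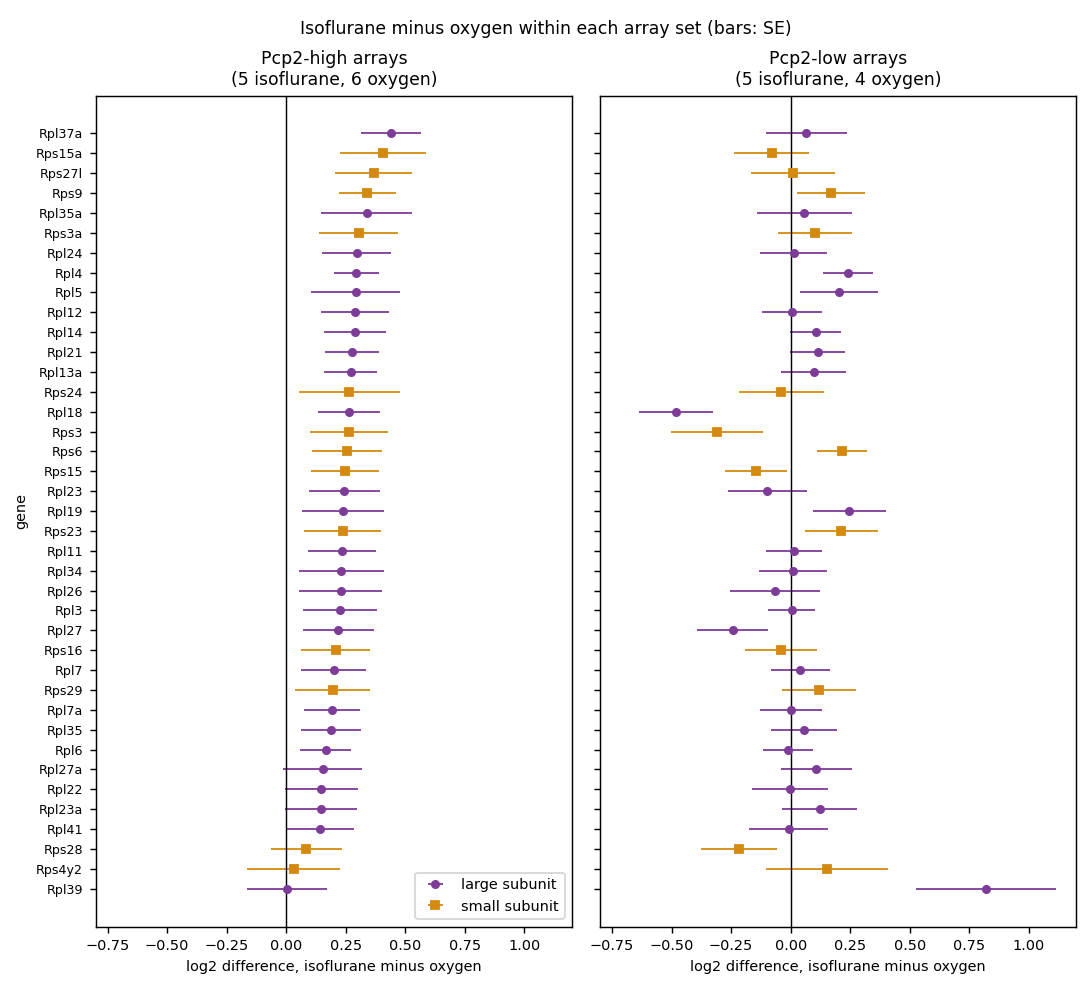
Isoflurane minus oxygen on the log2 scale (x axis) for the 39 tested genes (rows, ordered by the Pcp2-high difference), within Pcp2-high arrays (left) and Pcp2-low arrays (right). Circles are large subunit genes, squares small subunit genes and bars SE. All 39 points on the left lie at or above 0, and those on the right spread from -0.48 (Rpl18) to 0.82 (Rpl39). Members vary together, so the points of a panel are not separate observations.

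The isoflurane difference itself differed between sets for Rpl18 alone among members. Its difference was 0.75 larger in the Pcp2-high set than in the Pcp2-low set (SE 0.21, limma interaction adjusted p = 0.0291). Called were 1 of 39 members, against 10.2% of all probe sets (2.58% larger and 7.61% smaller in the Pcp2-high set). The members' median interaction was 0.19 with 36 positive. On Pcp2-high arrays Rpl18, a large subunit protein, had log2 signals of 13.29, 13.40, 13.58, 13.42 and 12.86 in isoflurane replicates 1, 3, 7, 8 and 9, against 12.74, 13.13 and 13.22 (lowest, median and highest of 6) with oxygen. On Pcp2-low arrays it had 12.09, 12.31, 12.02, 12.28 and 12.64 in isoflurane replicates 2, 4, 5, 6 and 10, against 12.45, 13.03, 12.95 and 12.56 in oxygen replicates 1 to 4. The low values belong to replicates 2, 4, 5 and 6, the arrays with the highest 3′/5′ ratios and the lowest Pcp2. Without these 4 arrays isoflurane replicate 10 is the only isoflurane Pcp2-low array, so a test of the interaction cannot decide, and its size was 0.37. With the 3′/5′ ratio as a covariate the interaction was 0.54 (adjusted p = 0.198). The part of tissue makeup and RNA quality in the Rpl18 difference was not tested further. The Rpl18 interaction passed in 25 of 34 alternatives, with a lowest adjusted p of 0.000248.

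Rpl39 was high on the same 4 arrays. It had log2 signals of 9.72, 9.65, 9.68, 9.78 and 8.36 in isoflurane replicates 2, 4, 5, 6 and 10, against 8.28, 9.18, 8.65 and 8.35 in oxygen replicates 1 to 4. On Pcp2-high arrays it had 8.47, 8.65, 8.65, 8.21 and 8.74 in isoflurane replicates 1, 3, 7, 8 and 9, against 7.96, 8.69 and 8.87 (lowest, median and highest of 6) with oxygen. Replicates 2, 4, 5 and 6 were above all 16 other arrays. The fitted interaction was -0.82 ± 0.35 (adjusted p = 0.134), short of the threshold.

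**Figure D2:**
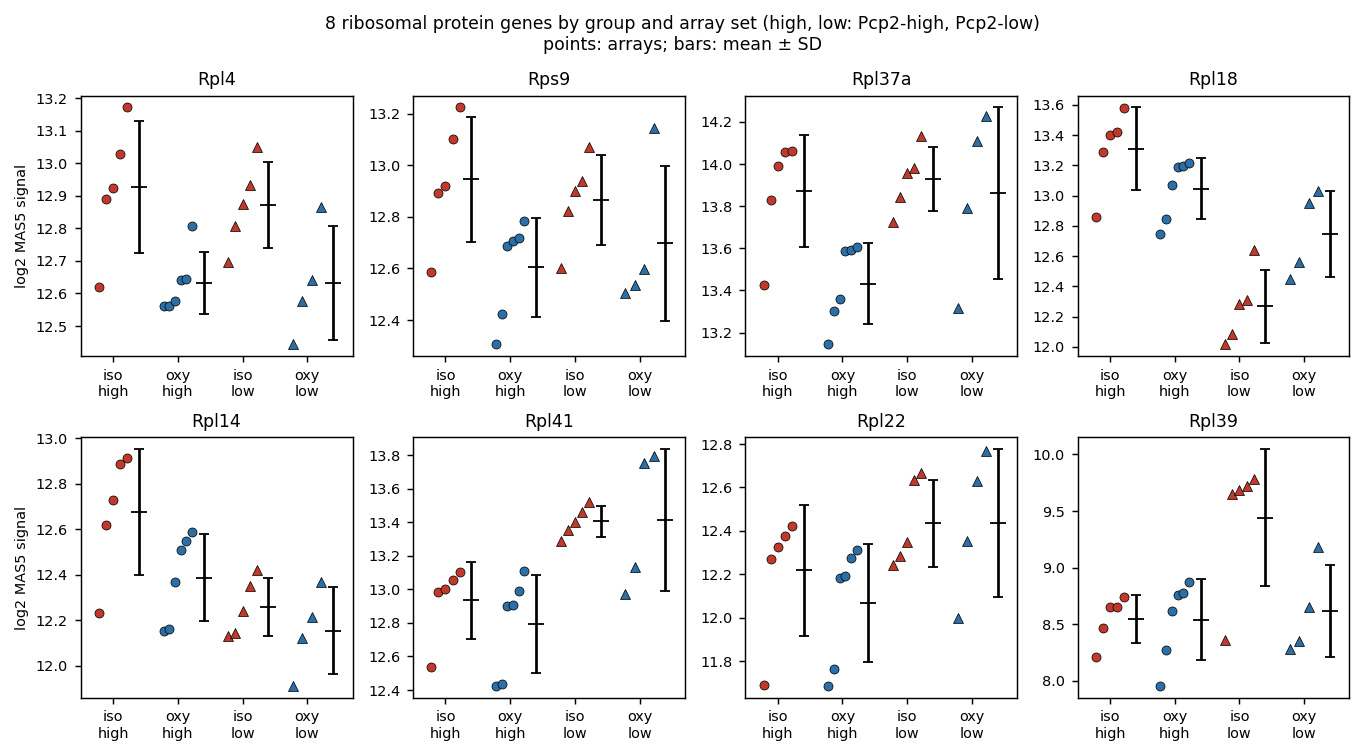
log2 MAS5 signal (y axis, each panel on its own scale) of 8 genes on each array, by group and array set. Red is isoflurane and blue oxygen, circles are Pcp2-high and triangles Pcp2-low arrays, and the bar beside each column is the mean ± SD. In the Rpl39 panel 4 isoflurane Pcp2-low arrays stand at 9.65 to 9.78, and in the Rpl18 panel the same 4 arrays hold the lowest values, 12.02 to 12.31.

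The members moved together with the brightest signals of each array. The mean log2 signal of the 36 bright members was 12.92 to 13.05 on 4 arrays (isoflurane replicate 9 and oxygen replicates 4, 5 and 7) and 13.20 to 13.71 on the other 16. On those 4 arrays the highest signal of any probe set was 20481.8 to 23451.1, and on the other 16 it was 31076.6 to 45322.4. Isoflurane replicate 9 and oxygen replicates 5 and 7 were the 3 lowest of the 11 Pcp2-high arrays for 34 of the 36 bright members. Across arrays the bright members' mean had a Pearson correlation of 0.87 with the 99th percentile of the signal of probe sets that are no members (n = 20), 0.98 in the Pcp2-high set (n = 11) and 0.83 in the Pcp2-low set (n = 9). These points share array and scaling, so the values are descriptions. Probe sets that are no members still include 35 that name several genes, at least 1 a ribosomal protein gene. Of these, 31 had a mean log2 signal above 12. With the 3′/5′ ratio the correlation was -0.82 in the Pcp2-high set and 0.17 in the Pcp2-low set.

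Both array properties are given here by treatment. The 99th percentile was 12.87 ± 0.10 with isoflurane (n = 5) and 12.79 ± 0.10 with oxygen (n = 6) on Pcp2-high arrays (log2, SD), and 12.89 ± 0.05 with isoflurane (n = 5) and 12.92 ± 0.11 with oxygen (n = 4) on Pcp2-low arrays. The 3′/5′ log2 ratio on Pcp2-high arrays was 0.74 ± 0.15 with isoflurane (n = 5) and 0.84 ± 0.10 with oxygen (n = 6). On Pcp2-low arrays it was 1.30 ± 0.33 with isoflurane (n = 5) and 1.00 ± 0.19 with oxygen (n = 4). With the 99th percentile as a covariate, an alternative added after the data were seen, the members' median isoflurane difference was 0.04 within Pcp2-high arrays with 27 of 39 positive, and 0.07 across both sets with 32 of 39 positive. With the 3′/5′ ratio as a covariate the Pcp2-high median was 0.07 with 34 positive. With the 99th percentile as a covariate across both sets, 2 members passed, both higher, against 8.94% of probe sets: Rpl4 (0.24, adjusted p = 0.0145) and Rps6 (0.17). Without the 4 dim arrays, the median was 0.18 within Pcp2-high arrays with 38 positive. There 5 members passed (Rpl12, Rpl24, Rpl35a, Rpl37a and Rps15a, all higher, against 0.236% of probe sets higher). The 4 dim arrays also had the lowest bright member means, so these calls are no separate evidence. The part of the arrays' bright end in the members' differences was not tested further.

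**Figure D3:**
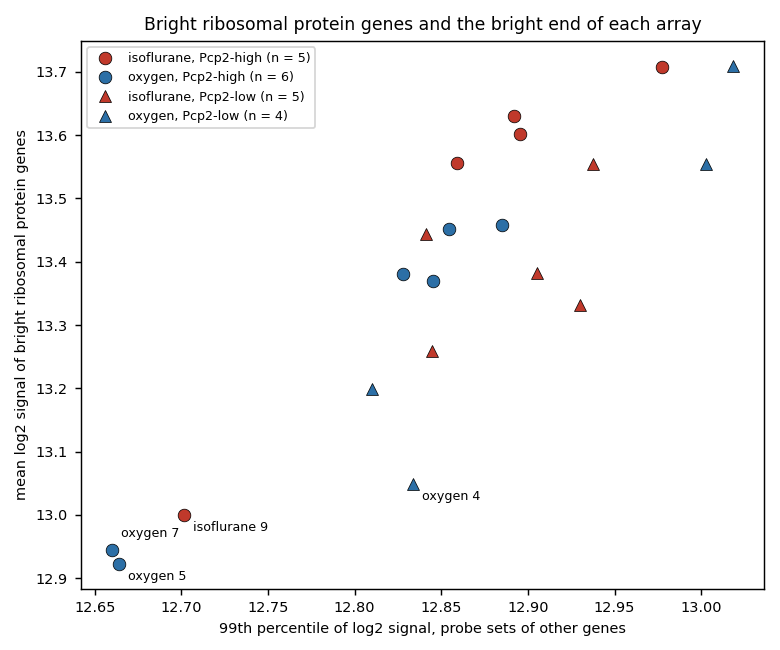
Mean log2 signal of the 36 bright ribosomal protein genes (y axis) against the 99th percentile of the log2 signal of probe sets that are no members (x axis), 1 point per array, with red for isoflurane, blue for oxygen, circles for Pcp2-high and triangles for Pcp2-low. The points rise together, and the 4 named arrays sit lowest, at 12.92 to 13.05.

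**Figure D4:**
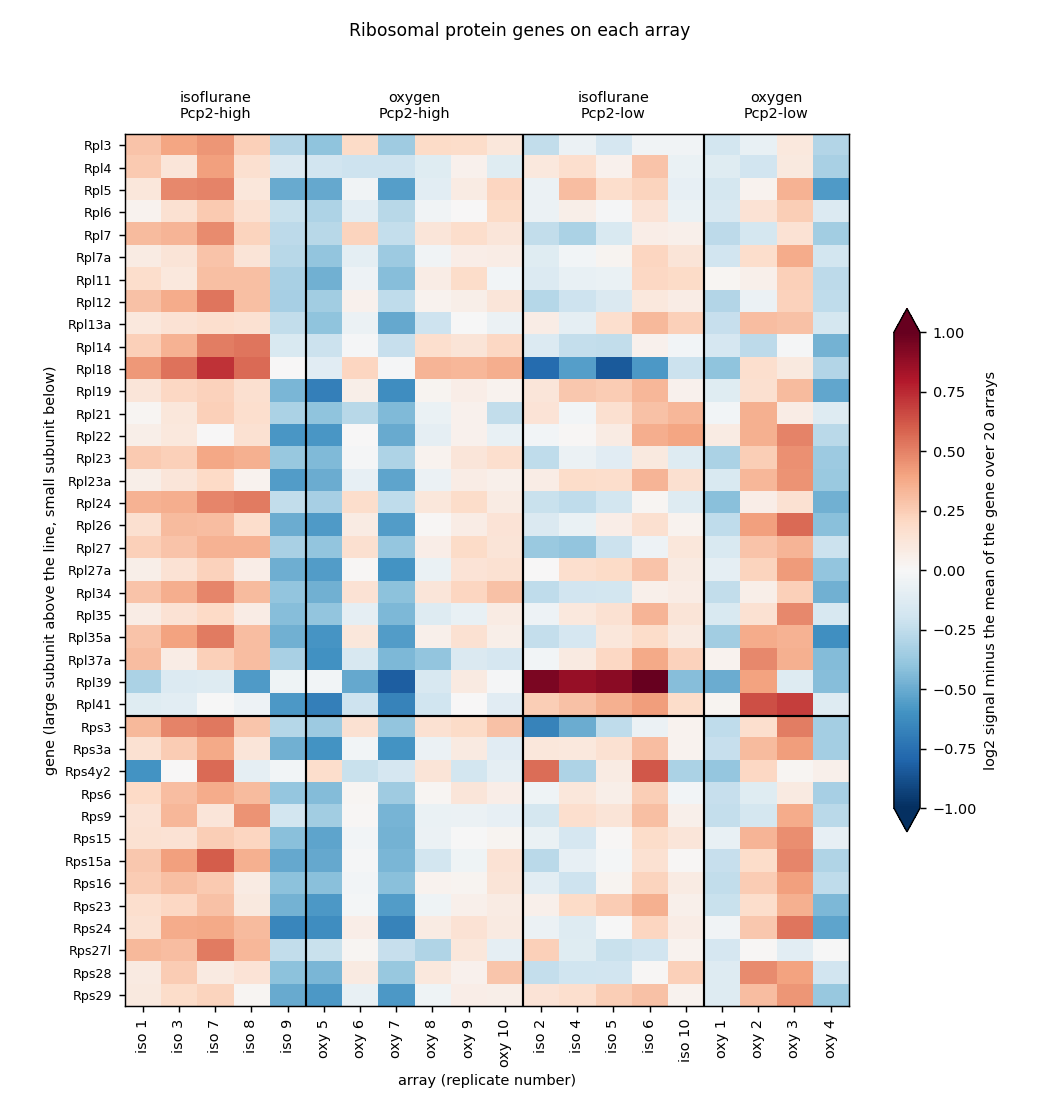
log2 signal of each of the 39 tested genes minus its mean over 20 arrays (colour, red higher, blue lower, with the scale ending at 1 log2 unit), with large subunit genes above the line and small subunit genes below it. Columns are arrays by group and set. Whole columns share a colour: isoflurane replicate 9 and oxygen replicates 4, 5 and 7 are blue in nearly all rows, and the Rpl39, Rpl18 and Rps4y2 rows depart from the columns.

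Between the sets, 8 members differed, all of the large subunit, and the share of members called was below that of all probe sets. With treatment as a block, 4 of 39 members were higher and 4 lower on Pcp2-high arrays (limma adjusted p under 0.05), against 60.8% of all probe sets (36.0% higher and 24.8% lower). The members' median difference was -0.03 beside 0.10 over all probe sets, and the median size of a difference was 0.15 beside 0.39. None of the 13 small subunit members passed, and their lowest adjusted p was 0.11. The sets differ in tissue markers and in 3′/5′ ratio (0.63 to 0.99 on Pcp2-high arrays, 0.75 to 1.59 on Pcp2-low arrays), and the part of each in these differences was not tested apart from the alternatives given here.

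Higher on Pcp2-high arrays were Rpl18, Rpl14, Rpl24 and Rpl7. Rpl18 was 0.68 ± 0.13 higher (adjusted p = 0.000151), with a mean of 13.31 ± 0.27 on isoflurane Pcp2-high arrays and 12.27 ± 0.24 on isoflurane Pcp2-low arrays, and 13.04 ± 0.20 and 12.75 ± 0.28 in the same order with oxygen (SD). It passed under all 34 alternatives, at 0.39 without isoflurane replicates 2, 4, 5 and 6. Rpl14 was 0.33 ± 0.09 higher (adjusted p = 0.00349), with 12.15, 12.55 and 12.91 (lowest, median and highest) on the 11 Pcp2-high arrays and 11.91, 12.21 and 12.42 on the 9 Pcp2-low arrays. Rpl24, which forms a bridge to the small subunit and is mutated in the Belly spot and tail mouse, was 0.31 ± 0.11 higher (adjusted p = 0.0187), and Rpl7 was 0.26 ± 0.10 higher (adjusted p = 0.0245). Without isoflurane replicates 2, 4, 5 and 6 the last 3 did not pass (0.26, 0.23 and 0.18), while Rpl18, Rpl41, Rpl22 and Rpl21 did, 4 of 39 members against 53.2% of probe sets.

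Lower on Pcp2-high arrays were Rpl41, Rpl39, Rpl22 and Rpl21. Rpl41, a very short basic peptide at the subunit interface, was 0.54 ± 0.11 lower on Pcp2-high arrays (difference -0.54, adjusted p = 0.000347). It had 12.43, 12.98 and 13.11 (lowest, median and highest) on the 11 Pcp2-high arrays and 12.97, 13.40 and 13.79 on the 9 Pcp2-low arrays. Of the Pcp2-low arrays only oxygen replicate 4 (12.97) lay within the Pcp2-high range, and 0 of 11 Pcp2-high arrays were above the Pcp2-low mean. It passed under all 34 alternatives. Rpl22, an RNA-binding protein at the surface of the large subunit, was lower by 0.29 (difference -0.29 ± 0.12, adjusted p = 0.0356) and Rpl21 by 0.21 (difference -0.21 ± 0.08, adjusted p = 0.0343). Rpl22 passed in 24 of 34 alternatives (adjusted p up to 0.230) and Rpl21 in 22 (up to 0.188). The Rpl39 difference of -0.49 ± 0.19 (adjusted p = 0.0318) was -0.01 without isoflurane replicates 2, 4, 5 and 6.

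The split of calls depended on the scaling. With quantile normalization 16 members were higher and 2 lower on Pcp2-high arrays, against 33.9% and 26.3% of probe sets. With the 99th percentile as a covariate 18 were higher and 1 lower, against 34.9% and 24.8%. Under both, Rpl18, Rpl14, Rpl24 and Rpl7 were called higher and Rpl41 lower. Both also called the small subunit genes Rps3 and Rps6 higher, at 0.52 and 0.24 with the covariate.

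**Figure D5:**
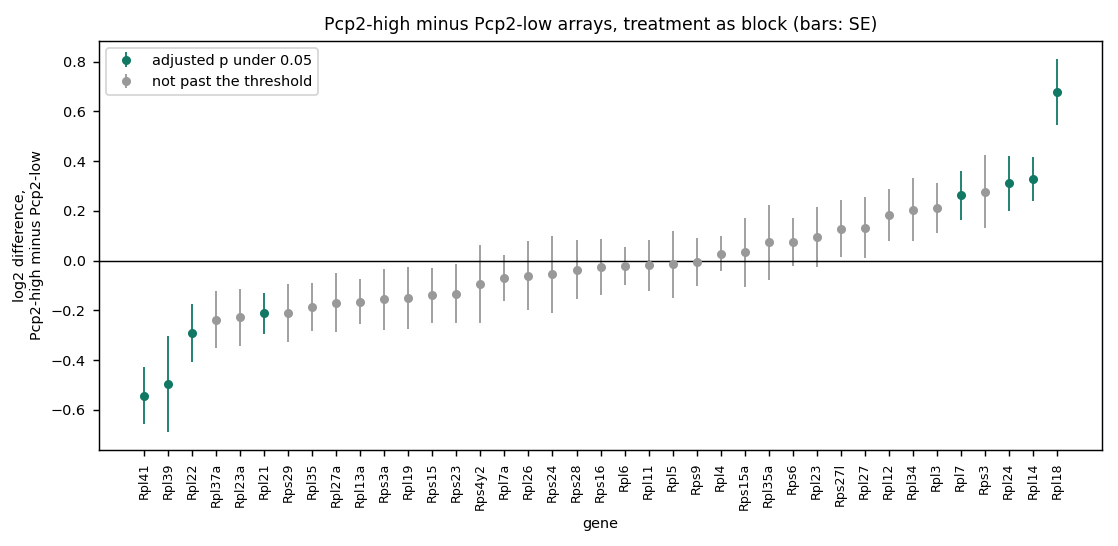
Pcp2-high minus Pcp2-low log2 difference (y axis, bars SE) for each of the 39 tested genes (x axis, in order of the difference), with green for adjusted p under 0.05. Rpl18 (0.68), Rpl14, Rpl24 and Rpl7 are the green points above 0, and Rpl41 (-0.54), Rpl39, Rpl22 and Rpl21 those below it.

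Members varied together from array to array. After each value was centred on its group within its set, the median Pearson correlation over 741 pairs of the 39 members was 0.87 across 20 arrays, beside 0.01 over all pairs of 10315 genes. Those genes were not matched to the members in brightness, and no median for pairs of equally bright genes is given. Pairs at 0.8 or above made up 68.2% of member pairs and 0.209% of all pairs. Centred on the group alone the members' median was 0.76, and on the set alone 0.85. Rpl23a followed the mean of the other members most closely (0.99). The weakest ties were those of the dim probe sets Rps4y2 (0.13), Rpl39 (0.20) and Rps27l (0.49), then of Rpl4 (0.71) and Rps9 (0.80). The SD within groups and sets ran from 0.15 for Rpl4 to 0.42 for Rpl39.

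Genes that are no members followed the same movement. The 5 with the highest correlation with the member mean were Cox6c (0.98) and Cox4i1 (0.96), both subunits of cytochrome c oxidase, Txn1 (0.97, thioredoxin), Eef1b2 (0.96, an exchange factor of translation elongation) and Cst3 (0.96, the secreted protease inhibitor cystatin C). A correlation of 0.8 or above was found for 237 of 10266 such genes (2.31%), and for 127 of 533 whose mean log2 signal was above 12 (23.8%). These correlations over 20 arrays share array and brightness and are descriptions.

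Of 7 ribosomal protein genes outside the naming rule, Rack1, Rplp0 and Rpsa had a probe set of their own. In the comparison across both sets none passed, against 7.37% of all probe sets, with Rack1, a scaffold protein of the small subunit, at 0.10 (adjusted p = 0.410). In the interaction Rplp0, the base of the stalk that recruits elongation factors, and Rpsa, a small subunit protein, passed at 0.56 and 0.55 (adjusted p = 0.0430 and 0.0489). The interaction rests in part on isoflurane replicates 2, 4, 5 and 6, whose part was not tested for these genes. Of all probe sets, 10.2% passed there (2.58% larger and 7.61% smaller in the Pcp2-high set). A further 35 probe sets name several genes, at least 1 of them a ribosomal protein gene, and 26 ribosomal protein genes appear only there. Of the 34 of these that were tested, 0 passed in the comparison across both sets, with 30 positive and a median of 0.08. Their median was 0.22 within Pcp2-high arrays with 34 of 34 positive, and -0.07 within Pcp2-low arrays with 14 positive. They were read on the same arrays, so the 34 are not 34 separate observations. In the set comparison 1 was higher and 4 lower, against 36.0% and 24.8% of all probe sets.

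Second probe sets did not always follow the first. Of the 4 members with another probe set, Rpl14's second fell below the filter, and those of Rpl7, Rpl3 and Rps24 were tested. The second probe set of Rps24 was weak. Its log2 signal was 6.54 to 7.04 on the 5 isoflurane Pcp2-low arrays and 4.80 to 6.22 on the 4 oxygen Pcp2-low arrays, which lie below the filter of 6.62, so no size or test of that difference is given. The first probe set gave -0.04 there. Within Pcp2-high arrays the second gave -0.05 and the first 0.27. The second probe set of Rpl7 gave 0.70 ± 0.35 within Pcp2-high arrays (adjusted p = 0.407), where the first gave 0.20. That of Rpl3 gave -0.02 ± 0.14 within Pcp2-high arrays, where the first gave 0.23.

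Few genes of the other translation lists passed with isoflurane across both sets, where 2.58% of all probe sets were called higher and 4.79% lower. Across both sets 1 of 14 other genes with a 5′ pyrimidine tract rose, Gas5 (0.36 ± 0.08, adjusted p = 0.0144), a non-coding host of small nucleolar RNAs, and the list's median was 0.00. Of 10 elongation factor genes 1 rose, Eif5a2 (0.40, adjusted p = 0.0332), and 1 fell, Eef1a2 (-0.73, adjusted p = 0.0218), the neuronal and muscle form of elongation factor 1A, with a list median of -0.11. None of 32 initiation factor genes passed, and Eif4a1, the RNA helicase that unwinds 5′ ends, had the lowest p (0.27, adjusted p = 0.0907). Of 74 mitochondrial ribosomal protein genes 1 rose, Mrps31 (0.27, adjusted p = 0.0410), and 2 fell, Mrpl38 (-0.43, adjusted p = 0.0194) and Mrps2 (-0.28, adjusted p = 0.0271), with a median of 0.03. The elongation factor, initiation factor and tract lists share members.

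Of 48 ribosome biogenesis genes Emg1, an rRNA methyltransferase, rose (0.56, adjusted p = 0.0194) and none fell, with a median of 0.05. Of 23 genes of mTOR and S6 kinase signalling, which controls translation of ribosomal protein mRNAs, 2 fell, Tsc2 (-0.56, adjusted p = 0.0147), a brake on mTOR, and Mlst8 (-0.45, adjusted p = 0.0269), a subunit of both mTOR complexes, and none rose. All these list calls belong to the comparison in which no probe set passed once isoflurane replicates 2, 4, 5 and 6 were left out. That fit keeps isoflurane replicate 10 as the only isoflurane Pcp2-low array. Within Pcp2-high arrays no gene of any list passed, and the medians were 0.15 for the tract list, 0.14 for elongation factors, 0.13 for initiation factors, 0.11 for mitochondrial ribosomal proteins, 0.08 for biogenesis and -0.03 for mTOR signalling.

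Within Pcp2-low arrays, where 11.2% of all probe sets were called higher and 7.42% lower, more of these genes passed. Of 32 initiation factor genes 1 was higher and 7 lower (median -0.17), among them Eif3d (-0.54, limma adjusted p = 0.0141) and Eif3l (-0.54, adjusted p = 0.0173), subunits of initiation factor 3. Of 10 elongation factor genes 1 was higher and 3 lower (median -0.35), with Eef1a2 at -1.39 (adjusted p = 0.00751). The counts higher and lower were 1 and 2 of 14 tract genes, 4 and 4 of 74 mitochondrial ribosomal protein genes, 2 and 3 of 48 biogenesis genes and 1 and 2 of 23 mTOR signalling genes. In the interaction 10.2% of all probe sets passed, 2.58% with a larger difference in the Pcp2-high set and 7.61% with a smaller one. Of 10 elongation factor genes 5 had a larger difference in the Pcp2-high set and none a smaller one. The counts larger and smaller were 6 and 1 of 32 initiation factor genes, 4 and 0 of 14 tract genes, 4 and 1 of 74 mitochondrial ribosomal protein genes, 1 and 2 of 48 biogenesis genes and 0 and 1 of 23 mTOR signalling genes. These comparisons rest in part on isoflurane replicates 2, 4, 5 and 6, whose part was not tested for these lists.

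Between sets, calls in these lists went in both directions except among initiation factors, beside 36.0% of all probe sets higher and 24.8% lower. On Pcp2-high arrays 13 of 32 initiation factor genes were higher and 0 lower, among them Eif4b (0.80 ± 0.09), a partner of the 5′ end helicase, and Eif2b3 and Eif2b5 (0.69 and 0.74), subunits of the initiation factor 2 exchange factor. Of 48 biogenesis genes 23 were higher and 5 lower, with Nmd3 (0.80), an export adaptor of the large subunit, higher and Nhp2 (-0.47), a box H/ACA protein, lower. Of 74 mitochondrial ribosomal protein genes 21 were higher and 16 lower. Among 14 tract genes 6 were higher and 1 lower, with Gas5 at 0.74. Of 23 mTOR signalling genes 7 were higher and 6 lower, with Rps6ka2 at -1.48 and Sesn1 at 0.81.

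With isoflurane across both sets 2.58% of all probe sets were called higher and 4.79% lower. Markers of other cell types gave 1 call there, Csf1r of microglia (-0.43, adjusted p = 0.0346, 1 of 6 listed). The counts were 0 of 5 for Purkinje cells, 0 of 7 for cerebellar granule cells, 0 of 6 for cortical projection neurons, 0 of 5 for oligodendrocytes, 0 of 5 for astrocytes, 0 of 5 for endothelium, 0 of 3 for choroid plexus and 0 of 2 for blood. Within Pcp2-low arrays the granule cell list had a median difference of -1.15 and none of 7 passed. Of all probe sets, 11.2% were called higher and 7.42% lower there. Lower there were 2 of 5 astrocyte genes, Gfap (-0.78) and Aldh1l1 (-0.51), 1 of 6 microglia genes, Csf1r (-0.56), and 1 of 3 choroid plexus genes, Ttr (-2.97). Of 6 cortical projection neuron genes Rorb was higher (1.67) and Neurod6 lower (-0.77), and none of 5 Purkinje cell, 5 oligodendrocyte, 5 endothelial and 2 blood genes passed. Between sets 36.0% of all probe sets were called higher on Pcp2-high arrays and 24.8% lower. Higher there were 4 of 5 Purkinje cell and 7 of 7 granule cell genes. The Purkinje cell list includes Pcp2, whose signal defined the sets, so its own difference was fixed by the split. Lower were 6 of 6 cortical projection neuron, 5 of 5 oligodendrocyte, 5 of 6 microglia and 5 of 5 endothelial genes. Astrocyte genes split, with 3 of 5 higher and 1 lower, and choroid plexus and blood genes were higher in 2 of 3 and 2 of 2. Their part in the members' differences was not tested.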

How the data were processed

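RNA from 20 tissue samples was measured on 20 Affymetrix arrays. The deposited values are intensity on a linear scale. The submitters' processing notes name MAS5 and Affymetrix Expression Console, and per those notes the authors made the signals with them. Tool versions and further settings are not given in the sources used here. Each array's mean after trimming 2% at each end was 500.12 to 500.16. Signals were floored at 1 (2079 values) and taken to log2. Of 31042 probe sets that are no controls, 18625 with a mean log2 above the 40th percentile were tested in R 4.3.3 (two-sided) using the moderated linear models of limma 3.58.1 with an intensity trend, and p-values were adjusted by Benjamini-Hochberg over all 18625 at a threshold of 0.05. Gene names came from the platform annotation, in which 20826 probe sets have 1 symbol, 436 have more and 9780 have no symbol. Arrays were split at a linear Pcp2 signal of 4096. Descriptions were computed in Python 3.11.15. The number of arrays limits precision. On simulated data for isoflurane against oxygen with the set block, the test recovered 22% of changes of 0.3 on the log2 scale, 56% of 0.5, 76% of 1 and 98% of 2, with 3 false among 129 calls. The simulated noise was independent between probe sets and arrays, and each added change was equal in both array sets. The real arrays share movement across probe sets, so these rates may not hold for them.

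Named genes were Rpl4 and Rps9, the members past the threshold with the largest differences (where none passed, the 3 of lowest p), the 5 brightest and 5 dimmest members, paralogs, members with several probe sets, and members of the other lists by the same rule. Some other members are named with their values as well, chosen after these were seen. Members and lists were chosen with earlier results of these data known. Alternatives were other scalings, filters, floors and probe set rules, covariates, array weights, blocks and left-out arrays.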

Additional observations from a re-analysis of the deposited data

Results flagged for a closer look

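Dixon's test was applied to 44 sets of 4 to 6 arrays of 1 group and array set, of which chance flags about 1 in 20, and 7 were flagged. Isoflurane replicate 9 lay far below the other 4 isoflurane Pcp2-high arrays in the mean log2 signal of the members (11.95, next array 12.43), in Rpl22 (11.69, next 12.27), in Rpl24 (12.89, next 13.48) and in Rpl41 (12.53, next 12.98). These 4 flags concern 1 array, whose members move together. Isoflurane replicate 10 lay far below the other 4 isoflurane Pcp2-low arrays in Rpl39 (8.36, next 9.65). Oxygen replicate 9 lay far above the other 5 oxygen Pcp2-high arrays in Rpl4 (12.81, next 12.64), and oxygen replicate 3 far above the other 3 oxygen Pcp2-low arrays in Rps9 (13.14, next 12.60). The isoflurane difference of Rpl18 differed between Pcp2-high and Pcp2-low arrays by 0.75 on the log2 scale (limma interaction adjusted p = 0.0291).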

How the results depend on the processing

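Shares of all probe sets stand beside some counts below, and counts without a share are not read as results about the members. The count of members called between isoflurane and oxygen with the set block (1) was 2 with quantile normalization and 2 with the mean of a gene's probe sets. It was 4 with array weights and 0 with arrays centred on their medians. It was 0 without the set block (0.397% of probe sets) and 0 without isoflurane replicates 2, 4, 5 and 6 (0.0%). The last fit keeps isoflurane replicate 10 as the only isoflurane Pcp2-low array. Same-numbered samples of the groups are not paired in the labels, and their deviations correlated at -0.66 to 0.62 from group means (0 of 10 best with their own number) and at -0.26 to 0.23 from group means within sets (1 of 10). The replicate block gave 0 calls with the array set and 0 without it. Within Pcp2-high arrays (0) array weights gave 7. Within Pcp2-low arrays (0) quantile normalization, median centring and a pseudocount of 64 gave 1 each, the mean of probe sets 2 and array weights 5. For the interaction (1) median centring gave 4 and a median of 0.44, the mean of probe sets 2, array weights 10 and the 3′/5′ ratio 0. Median centring moved the median of all probe sets to -0.21 within Pcp2-low arrays and to 0.25 in the interaction. Between sets (8) quantile normalization gave 18 (60.3% of probe sets) and the 3′/5′ ratio 4, with Rpl39 reversed to 0.082. Leaving out isoflurane replicates 2, 4, 5 and 6 gave 4 between sets (53.2% of probe sets). With the 99th percentile as a covariate, chosen after seeing the data, counts were 2 with the set block (8.94% of probe sets) and 4 within Pcp2-low arrays. They were 2 in the interaction and 19 between sets (59.7%). Without the 4 dim arrays, also chosen after seeing the data, counts were 2 with the set block (9.14% of probe sets) and 5 within Pcp2-high arrays (2.17%). They were 2 in the interaction and 13 between sets (59.4%). Leaving out single arrays gave 0 to 5 calls with the set block (median 0.10 to 0.20). There were 5 without isoflurane replicate 9 (15.8% of probe sets) and 0 without oxygen replicate 4 (2.58%). Single arrays left out gave 0 to 8 calls within Pcp2-high arrays (median 0.16 to 0.37) and 0 to 2 within Pcp2-low arrays (median -0.06 to 0.12). They gave 0 to 2 in the interaction (median 0.11 to 0.30) and 5 to 11 between sets (median -0.07 to 0.03). The causes were not tested. The call on Rpl4 held in 31 of 37 alternatives, that on the Rpl18 interaction in 25 of 34, and those between sets in 34 of 34 for Rpl18 and Rpl41, 31 for Rpl14 and Rpl24, 29 for Rpl7, 24 for Rpl22, 23 for Rpl39 and 22 for Rpl21.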
